A study of Mus musculus with 9 samples.

Results

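The genes described here encode parts of 4 vasoactive peptide systems. They are the ligands adrenomedullin (*Adm*), apelin (*Apln*) and endothelin 1 (*Edn1*), the receptor *Calcrl* with its partners *Ramp1*, *Ramp2* and *Ramp3*, and the natriuretic peptide receptors *Npr1*, *Npr2* and *Npr3*. They were selected by gene symbol, and the 10 symbols gave 10 of the 23332 gene rows. The list was drawn up with the values of *Adm*, *Apln* and *Npr2* in these samples already known, so that the differences of these 10 genes between E2 and the other conditions are given as a description. No p-value is printed for them, and the counts of them that pass the threshold in the fit over all genes stand beside the share of all genes that do, with nothing read from them. The 9 samples, 3 in each of 3 conditions, are RNAseq libraries of FVB MOE cells, which were grown out from 1 clone of mouse oviductal epithelium and are described as secretory. All cells came from maintenance medium that contained 17-beta-estradiol and were starved of hormone for 48 h in medium with charcoal stripped serum. They then received for 24 h either the solvent DMSO at 0.1%, 1 nM E2 (17-beta-estradiol, the natural ligand of the estrogen receptors) or 100 nM 4OHT (4-hydroxytamoxifen, a selective estrogen receptor modulator). The labels number the samples 1 to 3 within each condition and do not say that they were separate cultures, so the p-values measure the spread between these samples, which may be technical. The comparisons address which genes respond to estrogen in this cell type and whether 4OHT acts on them.

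Adrenomedullin is a secreted peptide that relaxes blood vessels. Its receptor is CALCRL, a receptor of the plasma membrane that needs a RAMP protein: with RAMP2 or RAMP3 it binds adrenomedullin, and with RAMP1 it binds the calcitonin gene-related peptide. Apelin signals through APLNR and endothelin 1 through EDNRA and EDNRB. NPR1 and NPR2 are membrane guanylate cyclases that make cyclic GMP when natriuretic peptides bind, while NPR3 mainly takes these peptides up and clears them. In the oviduct, vasoactive peptides of this kind are known for effects on muscle tone, secretion and ciliary beating.

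*Adm*, *Apln* and *Npr2* are the genes whose values were known when the list was drawn up. The 250 bases before their start sites are shown (RefSeq, GRCm38.p6, 5′ to 3′ on the strand of the gene). A promoter was found for 9 of the 10 genes, all but *Ramp2*. The capitals mark the half-site of the estrogen response element, GGTCA or, on the other strand, TGACC, the motif to which estrogen receptors can bind directly. The windows lie at chr7:110627407-110627656 on the plus strand for *Adm*, chrX:48034854-48035103 on the minus strand for *Apln* and chr4:43631685-43631934 on the plus strand for *Npr2*.
Adm: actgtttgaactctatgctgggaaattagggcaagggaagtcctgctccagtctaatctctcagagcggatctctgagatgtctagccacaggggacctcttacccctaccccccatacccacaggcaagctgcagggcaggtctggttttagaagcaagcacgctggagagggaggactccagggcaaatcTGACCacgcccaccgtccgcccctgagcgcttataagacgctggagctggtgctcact
Apln: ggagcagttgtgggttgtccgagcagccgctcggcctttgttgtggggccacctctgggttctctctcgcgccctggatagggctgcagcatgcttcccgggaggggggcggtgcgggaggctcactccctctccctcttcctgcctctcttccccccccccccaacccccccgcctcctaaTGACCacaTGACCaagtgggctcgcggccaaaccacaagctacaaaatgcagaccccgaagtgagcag
Npr2: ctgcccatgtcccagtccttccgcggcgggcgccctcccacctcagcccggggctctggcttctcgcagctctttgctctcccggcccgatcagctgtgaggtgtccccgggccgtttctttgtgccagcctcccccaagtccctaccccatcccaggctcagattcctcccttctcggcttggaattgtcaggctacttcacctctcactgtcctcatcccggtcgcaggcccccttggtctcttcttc
*Adm* held 1 half-site, which starts at -58 from the gene start. *Apln* held 2, at -68 and -60, and *Npr2* held none. Of the other members, *Npr1* had a half-site at -236 and *Ramp1* at -139. Half-sites occur in 35.24% of all 32851 promoter windows of this length, and the full element GGTCANNNTGACC, found in 0.06% of them, was in none of the 9. The hypoxia response element core ACGTG (16.57% of windows), the AP-1 site TGANTCA (6.75%) and the TATA box TATAAA (7.59%) had no match in the 9 windows, and the cyclic AMP response element half-site TGACG (17.77%) matched once, in *Npr3* at -50. Both strands were searched, except for the TATA box, which was sought on the strand of the gene only. These matches describe letters in a window, not binding.

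The values are FPKM (sequenced fragments of a gene divided by its transcript length and by the mapped fragments of the sample), which the authors deposited for each sample. They are scaled to transcript length, so levels can be compared between genes. A gene is called expressed in a condition where all 3 samples had at least 1 FPKM. Per sample, 11037 to 11175 gene rows reached 1 FPKM. The steps between low values gave the relative depth: compared with DMSO replicate 2, it was 0.850 to 1.0 in DMSO, 0.721 to 0.891 in E2 and 0.695 to 0.783 in 4OHT. Each 4OHT sample was thus shallower than each DMSO sample, so between these conditions the treatment cannot be told apart from depth. The line carried 7 of the 9 markers of secretory epithelium in every sample, among them *Pax8* and *Krt7*, while *Epcam* and *Cdh1* stayed under 1 FPKM. The summed level of the 9 was 1421 to 1564 FPKM in DMSO, 2338 to 2570 in E2 and 1484 to 1678 in 4OHT. *Krt7* had a mean of 310 FPKM in DMSO and 816 in E2, and *Krt8*, *Krt18* and *Krt19* were also higher with E2 without overlap. *Ovgp1* had means of 2.24 and 1.65, and its E2 and DMSO ranges overlapped, as did those of *Pax8* and *Esr1*. Of the 6 markers of endothelium, the best known source of several of these peptides, none was expressed in every sample, and *Emcn* and *Cldn5* were at 0. The sum of the 6 was 0.638 to 0.837 FPKM in DMSO, 1.18 to 1.42 in E2 and 0.722 to 0.870 in 4OHT. Its largest part was *Kdr*, at 0.445 to 0.711 FPKM in DMSO, 1.01 to 1.28 in E2 and 0.625 to 0.754 in 4OHT. The E2 and DMSO ranges of *Pecam1* and *Cdh5* overlapped. Of 4 smooth muscle markers, the actin *Acta2* (932 to 1724 FPKM) and *Cnn1* (10.0 to 36.5) were expressed in every sample. *Myh11* (0.241 to 0.305) and *Des* (0.0101 to 0.0491) stayed under 1 FPKM. The stroma and leukocyte lists had 1 gene each expressed in every sample, *Col1a1* of 5 and *Cd68* of 3. Of 6 markers of ciliated cells 3 were expressed, their list summing to 18.1 to 20.7 FPKM in DMSO, 14.0 to 17.8 in E2 and 18.5 to 20.5 in 4OHT. *Foxj1* was at 13.6 to 15.9 FPKM in DMSO and 8.95 to 13.0 in E2. *Rsph1* went the other way, at 2.98 to 3.21 and 3.52 to 3.86, and the ranges of *Ccdc39* overlapped. The part of any of these in the values below was not tested. In bulk RNA, more cells that express a gene and more RNA per cell cannot be told apart.

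Of the 10 genes, 7 were expressed in all 3 conditions and 3 (*Calcrl*, *Ramp1* and *Ramp3*) in none. In DMSO the order of the mean levels was *Npr2* (42.6 ± 6.14 FPKM, SD, n = 3), *Npr3* (15.2 ± 3.19), *Edn1* (9.60 ± 0.420), *Adm* (6.62 ± 1.26), *Npr1* (4.89 ± 3.11), *Apln* (3.90 ± 1.49), *Ramp2* (1.16 ± 0.147), *Ramp1* (0.510 ± 0.189), *Ramp3* (0.0730 ± 0.0272) and *Calcrl* (0.00515 ± 0.00561). In this order the ranges of *Adm* and *Npr1* overlapped, as did those of *Npr1* and *Apln*, and all other neighbours were apart. In E2, *Adm* stood above *Edn1* at a level whose range overlapped that of *Npr3*, and the range of *Apln* overlapped that of *Ramp2*. In 4OHT the order was that of DMSO, with overlapping ranges from *Edn1* through *Adm* and *Npr1* to *Apln*.

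**Figure D1:**
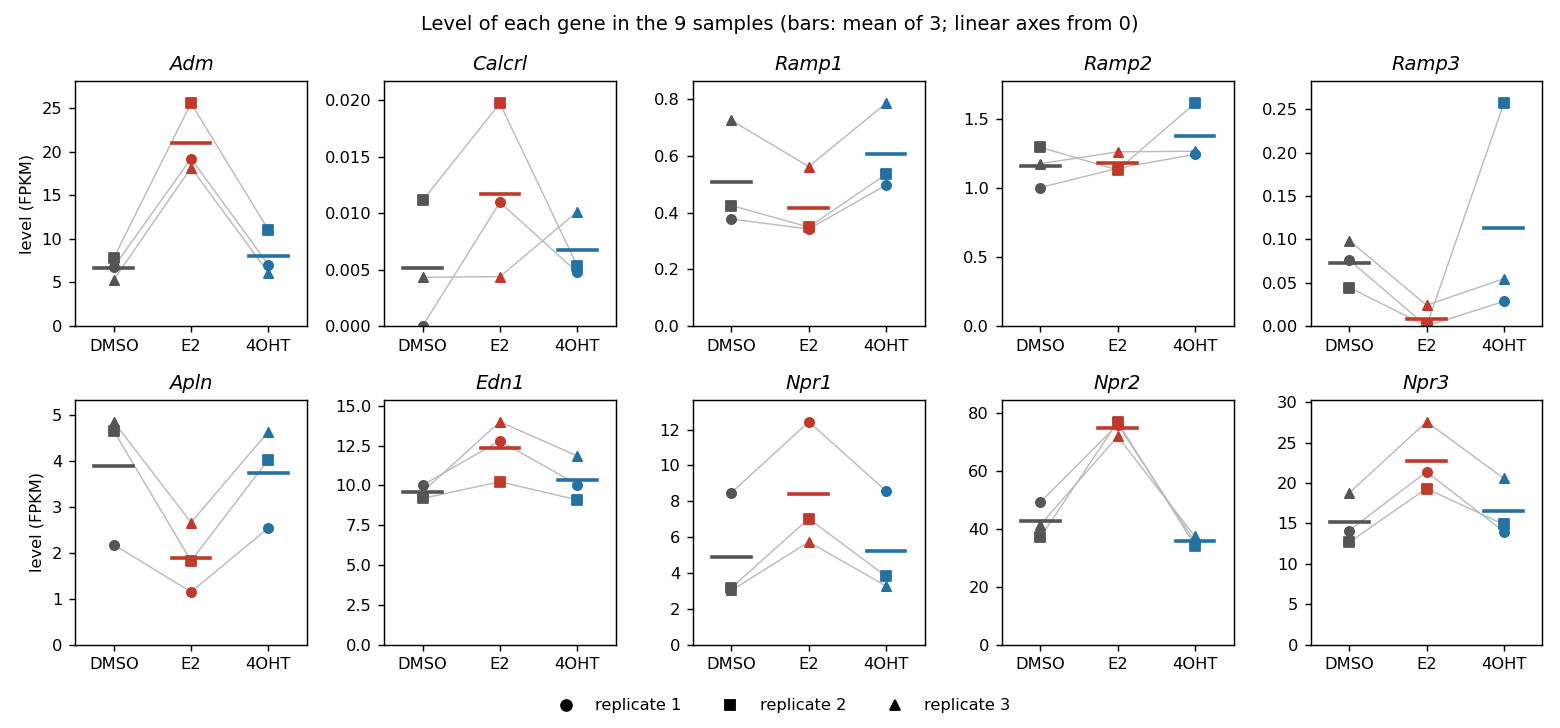
Level of each of the 10 genes (y axis, FPKM, linear from 0, a scale of its own for each gene) in DMSO, E2 and 4OHT. Points are single samples with a symbol for each replicate number, joined by thin lines, and bars are means of 3. *Adm* and *Npr2* in E2 lie above all other samples, and *Apln* in E2 lies below its own DMSO value in each replicate number. *Npr1* is highest and *Apln* lowest in replicate 1 of every condition.

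*Adm*, the ligand that gives the group its name, had a mean level with E2 that was 3.17 times that in DMSO and 2.60 times that in 4OHT. It had 6.76, 7.80 and 5.29 FPKM in DMSO replicates 1, 2 and 3, against 19.2, 25.5 and 18.2 FPKM in E2. In 4OHT it had 7.03, 11.0 and 6.12 FPKM. All E2 samples were above all DMSO and 4OHT samples, whereas DMSO and 4OHT overlapped, with replicate 2 the highest of each condition. The ratio of E2 to DMSO was 2.84, 3.27 and 3.43 in the 3 replicate pairs, and the difference of log2(FPKM + 1), fitted with limma over all 11339 tested genes, was 1.53 (SE 0.22). Fitted differences on this scale understate the change of genes near 1 FPKM. *Adm* lies on chromosome 7 from 110627661 to 110629820 (GRCm38, plus strand).

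The adrenomedullin receptor was not expressed in any condition. *Calcrl*, whose product binds adrenomedullin together with a RAMP, was listed at 0, 0.0111 and 0.00431 FPKM in DMSO, at 0.0110, 0.0197 and 0.00437 FPKM in E2 and at 0.00477, 0.00534 and 0.0101 FPKM in 4OHT. Scaled by the relative depth, these values stood in steps of 0, 2.90 and 1.00 in DMSO, 2.06, 4.10 and 1.01 in E2 and 0.963, 0.967 and 2.07 in 4OHT. A step was the mean, over the samples above 0, of the scaled value divided by its nearest whole multiple of the smallest. No sample showed *Calcrl* above 4.10 steps, and no difference between conditions could be read from them. *Ramp2*, the partner that directs CALCRL to adrenomedullin, had 1.00, 1.30 and 1.18 FPKM in DMSO, 1.14, 1.13 and 1.26 FPKM in E2 and 1.25, 1.62 and 1.27 FPKM in 4OHT. The ranges of the conditions overlapped. The annotation places *Ramp2* (chromosome 11, 101246028 to 101259546) across *Vps25* on the same strand, a gene with a median of 33.2 FPKM, and how reads were divided between them was not tested. *Ramp1* had 0.378, 0.425 and 0.726 FPKM in DMSO and 0.343, 0.349 and 0.563 FPKM in E2, lower in all 3 pairs. In 4OHT it had 0.498, 0.536 and 0.786 FPKM, higher than DMSO in all 3 pairs. The ranges of all 3 conditions overlapped. *Ramp1* is on chromosome 1 (91179822 to 91225196), *Ramp3* on chromosome 11 (6658521 to 6677475) and *Calcrl* on chromosome 2 (84330626 to 84425411). *Ramp3* had 0.0761, 0.0444 and 0.0986 FPKM in DMSO and 0.0284, 0.257 and 0.0545 FPKM in 4OHT. In E2 it was listed at exactly 0 in replicates 1 and 2 and at 0.0240 FPKM in replicate 3, so that its E2 samples lay below the others at a level where no fold is given. Exact zeros occurred in these 2 receptor genes, *Calcrl* in 1 sample and *Ramp3* in 2, and in none of the 7 genes that were tested.

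*Apln*, the apelin gene, had a mean level with E2 that was 0.481 times that in DMSO. It had 2.18, 4.66 and 4.86 FPKM in DMSO, 1.15, 1.83 and 2.66 FPKM in E2 and 2.55, 4.04 and 4.65 FPKM in 4OHT. Replicate 1 was the lowest in each condition, and the ranges of E2 and DMSO overlapped because the DMSO value of replicate 1 lay under the E2 value of replicate 3. Within each replicate number E2 was below DMSO, at 0.526, 0.392 and 0.548 of its level. The fitted log2 difference was -0.75 (SE 0.30), and -0.75 (SE 0.088) when the fit held a replicate block, a term that takes out what samples of the same number share. *Apln* is on the X chromosome (48025146 to 48034853, minus strand). Its receptor *Aplnr* was between 0.0947 and 0.181 FPKM in the 9 samples, and *Apela*, the second known ligand of that receptor, was listed at 0 in all of them.

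*Npr2*, the receptor for C-type natriuretic peptide, was the most highly expressed of the 10 genes in every sample. It had 49.2, 37.1 and 41.4 FPKM in DMSO, 76.1, 77.0 and 72.0 FPKM in E2 and 35.5, 34.2 and 37.4 FPKM in 4OHT. The E2 samples were close together and far above the others. DMSO and 4OHT overlapped only because 4OHT replicate 3 exceeded DMSO replicate 2. The ratio of E2 to DMSO was 1.55, 2.08 and 1.74 in the pairs, and that of E2 to 4OHT was 2.14, 2.25 and 1.93. The fitted log2 differences were 0.81 and 1.05 (SE 0.095 each). *Npr2* spans 43631935 to 43651244 on chromosome 4, plus strand.

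The other natriuretic peptide receptors were also higher with E2 in each pair. *Npr1*, the receptor for the atrial and brain peptides, had 8.49, 3.17 and 3.02 FPKM in DMSO, 12.4, 7.03 and 5.73 FPKM in E2 and 8.58, 3.81 and 3.27 FPKM in 4OHT. Replicate 1 was the highest of each condition, and its DMSO value lay above the E2 values of replicates 2 and 3, so the ranges overlapped although the ratio within pairs was 1.47, 2.22 and 1.89. *Npr3*, the clearance receptor, had 14.1, 12.7 and 18.8 FPKM in DMSO, 21.4, 19.3 and 27.6 FPKM in E2 and 14.0, 14.9 and 20.6 FPKM in 4OHT. Its E2 samples were all above its DMSO samples, by ratios of 1.52, 1.52 and 1.47, which was the narrowest spread of this ratio among the 7 tested genes. *Edn1*, a strong constrictor of vessels, had 10.0, 9.18 and 9.60 FPKM in DMSO, 12.8, 10.2 and 14.0 FPKM in E2 and 10.1, 9.10 and 11.9 FPKM in 4OHT. The E2 and DMSO ranges did not overlap, but E2 replicate 2 exceeded DMSO replicate 1 by a small margin only. In GRCm38, *Npr1* lies on chromosome 3 (90450591 to 90465866, minus strand), *Npr3* on chromosome 15 (11839896 to 11907287, minus strand) and *Edn1* on chromosome 13 (42301476 to 42307990, plus strand). Antisense genes are annotated across *Adm*, *Npr1*, *Npr2* and *Edn1*. On the opposite strand, a long noncoding gene also overlaps *Npr3*, and a pseudogene with a median of 0 FPKM overlaps *Ramp3*. Reads of such overlapping genes cannot be told apart where counting ignored the strand.

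**Figure D2:**
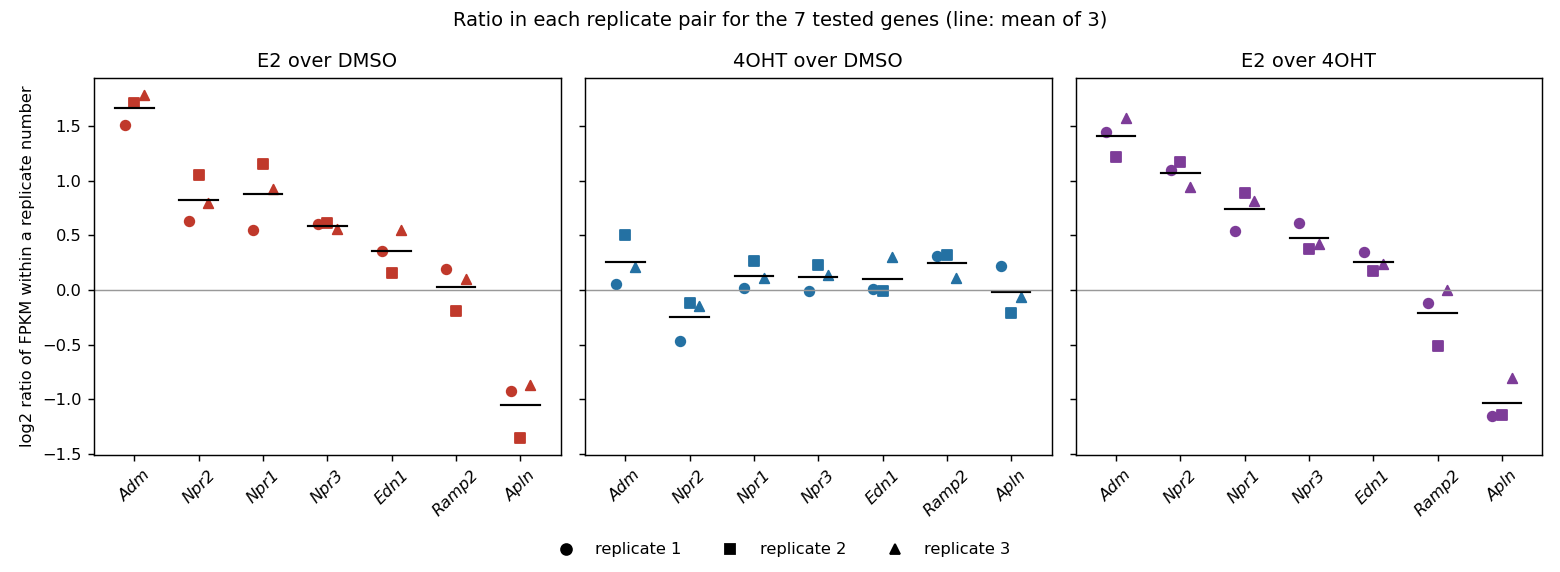
Log2 ratio of FPKM (y axis, nothing added) within each replicate number for the 7 tested genes (x axis), for E2 over DMSO, 4OHT over DMSO and E2 over 4OHT. Points are the 3 replicate numbers and lines their means. For E2 over DMSO, *Adm*, *Npr2*, *Npr1*, *Npr3* and *Edn1* lie above 0 and *Apln* below 0 in all 3 pairs, while for 4OHT over DMSO most points lie near 0.

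Of the 10 genes, 7 passed the filter of at least 1 FPKM in at least 3 samples and entered the limma fit over all 11339 tested genes. Between E2 and DMSO, 2 of the 7 (*Adm* and *Npr2*) had an adjusted p under 0.05, against 0.512% of all tested genes. When the fit included the replicate block it was 6 of the 7, all but *Ramp2*, against 15.0%, with 5 higher (background 10.4%) and 1 lower (4.63%). Without replicate 1 of every condition, and without the block, the count was 1 of 7. With 1 sample left out at a time it was 0 to 2, and 0 without DMSO replicate 3 or without any 1 of the E2 samples. The ranges of E2 and DMSO did not overlap for 4 of the 7 (*Adm*, *Npr2*, *Npr3* and *Edn1*, all higher), which held for 9.14% of all tested genes, and 5 were higher in all 3 pairs, which held for 28.1%. *Apln* was lower in all 3 pairs, as were 24.3% of all tested genes. Since the list was chosen on this comparison, nothing is read from these counts. The 7 genes had a median fitted log2 difference of 0.56, and all tested genes one of -0.0027.

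Between E2 and 4OHT, which share their E2 samples with the comparison above, the fitted log2 difference was 1.30 for *Adm*, 1.05 for *Npr2*, 0.63 for *Npr1*, 0.45 for *Npr3*, 0.23 for *Edn1*, -0.12 for *Ramp2* and -0.73 for *Apln*. Leaving out 1 sample moved the value of *Npr1* to 0.34 (without E2 replicate 1), 0.41 (without 4OHT replicate 3) or 0.99 (without 4OHT replicate 1). That of *Edn1* became 0.14 without E2 replicate 3, 0.15 without 4OHT replicate 2 and 0.35 without E2 replicate 2, and that of *Ramp2* became -0.05 without 4OHT replicate 2. The ranges were apart for *Adm* and *Npr2*, both higher with E2, against 8.40% of all tested genes. *Npr2* was called (1 of 7, background 0.159%), and with the block *Adm*, *Npr1*, *Npr2* and *Npr3* (higher, background 8.63%) and *Apln* (lower, background 7.60%) were, 5 of 7 against 16.2% of all tested genes. The list was chosen with these values known, and nothing is read from these counts.

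4OHT was tested against DMSO in the same fit. The levels in these samples were known when the list was made, so this test is not independent of the choice either. None of the 7 tested genes passed, at an adjusted p of 1.00 for each without the block and of 0.376 or more with it, while 1 of the 7 without the block and 2 with it had an unadjusted p under 0.05 (limma, Benjamini-Hochberg adjusted over the 11339 genes, 3 samples each). Of all tested genes 0% passed, while 313 had an unadjusted p under 0.05, and 1480 with the block. Without the block *Npr2* had the smallest p, with a fitted log2 difference of -0.24 (95% interval -0.46 to -0.02, unadjusted p = 0.0370, limma), and was lower with 4OHT in all 3 pairs (as were 15.6% of all tested genes), at 0.722, 0.923 and 0.902 of its DMSO level. *Adm* had a difference of 0.23 (-0.28 to 0.74) and was higher with 4OHT in all 3 pairs (as were 30.2% of all tested genes), at ratios of 1.04, 1.41 and 1.16. *Ramp2* and *Npr1* were also higher in all 3 pairs. With the block the intervals of *Adm* (0.03 to 0.42) and *Npr2* (-0.45 to -0.03) did not include 0, each at an adjusted p of 0.376 (limma). Without the block the difference was, for *Apln*, -0.02 (-0.71 to 0.67), for *Npr1* 0.10 (-0.92 to 1.12), for *Npr3* 0.11 (-0.34 to 0.56), for *Edn1* 0.09 (-0.19 to 0.37) and for *Ramp2* 0.14 (-0.07 to 0.34). The widest interval was that of *Npr1*, which with the block was -0.09 to 0.29. No gene of the 7 had ranges that did not overlap, against 7.94% of all tested genes.

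**Figure D3:**
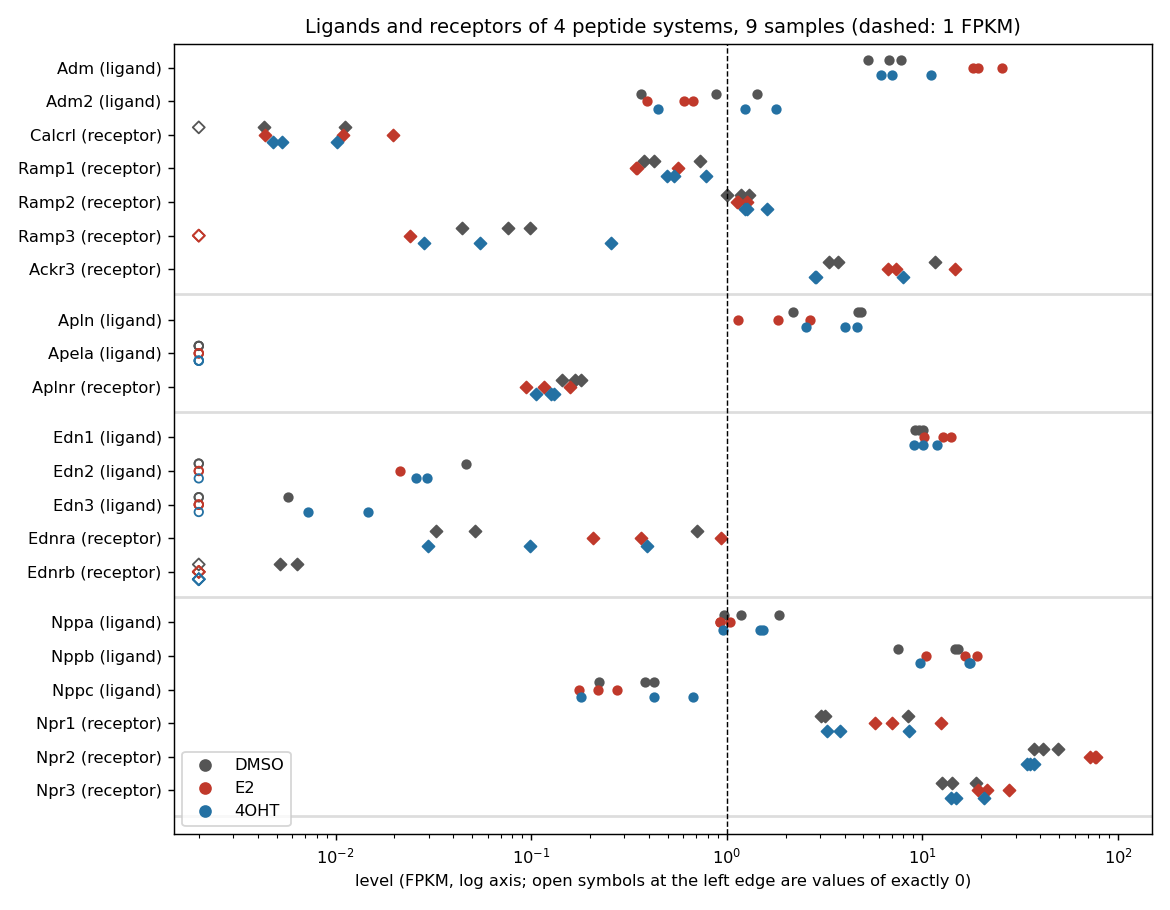
Level in FPKM (x axis, log scale) of ligands (circles) and receptors (diamonds) of the 4 peptide systems in the 9 samples, coloured by condition. Open symbols at the left edge are values of exactly 0 and the dashed line is 1 FPKM. *Adm*, *Apln* and *Edn1* lie right of the line while *Calcrl*, *Aplnr*, *Ednra* and *Ednrb* lie left of it, and the 3 natriuretic peptide receptors and *Nppb* lie right of it.

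Ligand and receptor were both expressed in 1 of the 4 systems. All 3 ligands among the 10 genes were expressed, each without its classical receptor: *Adm* without *Calcrl*, *Apln* without *Aplnr* and *Edn1* without *Ednra* (0.0296 to 0.932 FPKM) or *Ednrb* (at most 0.00637 FPKM, listed at 0 in 7 samples). *Ednra* had 0.703, 0.0515 and 0.0326 FPKM in DMSO, 0.932, 0.366 and 0.206 FPKM in E2 and 0.390, 0.0992 and 0.0296 FPKM in 4OHT. It was higher with E2 in every pair, and replicate 1 was the highest of each condition. For the natriuretic peptides, all 3 receptors were expressed along with *Nppb*, the gene of brain natriuretic peptide. *Nppb* had 7.49, 14.6 and 15.2 FPKM in DMSO, 10.5, 16.6 and 19.0 FPKM in E2 and 9.70, 17.4 and 17.2 FPKM in 4OHT, with replicate 1 the lowest of each condition. *Nppa*, the gene of atrial natriuretic peptide, lay around the limit at 0.922 to 1.84 FPKM. *Nppc*, whose product is the ligand of NPR2, was at 0.176 to 0.675 FPKM. The scavenger receptor *Ackr3*, listed under its older symbol *Cxcr7* and known to take up adrenomedullin, was expressed, at 11.6, 3.32 and 3.70 FPKM in DMSO, 14.6, 7.33 and 6.64 FPKM in E2 and 7.93, 2.82 and 2.85 FPKM in 4OHT. It was higher with E2 within each replicate number, and replicate 1 was again the highest of each condition. *Adm2*, a ligand related to adrenomedullin, ranged from 0.366 to 1.78 FPKM with overlapping ranges. It was higher with 4OHT than with DMSO or E2 in all 3 pairs, and mixed between E2 and DMSO.

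A list of 58 other genes of these pathways (other ligands, maturation enzymes, other receptors and clearance, and steps of cyclic AMP and cyclic GMP signaling) gave 64 gene rows, of which 30 were tested. Without the block 0 of the 30 passed in any comparison (limma with Benjamini-Hochberg adjustment). An unadjusted p under 0.05 was found for 4 in E2 against DMSO, 1 in 4OHT against DMSO and 3 in E2 against 4OHT. Of all 11339 tested genes, 1237, 313 and 1307 had one, in the same order. The smallest adjusted p was 0.102, for *Rapgef3*. With the block, 8 of the 30 (26.7%, against 15.0% of all tested genes) passed between E2 and DMSO. Of these, 6 were higher (background 10.4%) and 2 lower (background 4.63%). The list had a median fitted log2 difference of 0.02.

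Among the other ligands, *Nppb* was the gene that passed with the block, with a fitted log2 difference of 0.30 (adjusted p = 0.0202 with the block and 0.758 without it, limma). Among the 7 tested rows of maturation enzymes, 3 were higher with E2 and 1 lower with the block (backgrounds 10.4% and 4.63%). *Pcsk6*, a proprotein convertase, had a difference of 0.39 (adjusted p = 0.0111), *Ece1*, which makes mature endothelin, of 0.21 (adjusted p = 0.0142), and *Pam*, the enzyme that amidates adrenomedullin, of 0.19 (adjusted p = 0.0336). One of the 2 rows of *Ece2*, a related converting enzyme, was lower, by a difference of -0.30 (adjusted p = 0.0347), and the other had -0.09 (adjusted p = 0.594). Between 4OHT and DMSO none of these passed. Their differences there were 0.25 for *Nppb*, 0.18 for *Pcsk6*, 0.08 for *Ece1* and 0.09 for *Pam*. The lower row of *Ece2* had -0.26 there and the other 0.09. Between E2 and 4OHT, *Nppb* differed by 0.05 and the lower row of *Ece2* by -0.04. Of the 5 tested rows of other receptors and clearance, *Ackr3* passed with 0.65 (adjusted p = 0.0152). The expressed peptidases *Mme* (19.8 ± 3.20 FPKM in DMSO, SD, n = 3) and *Ide* (40.9 ± 1.64) and the receptor component *Crcp* (22.5 ± 2.12) did not, with differences of 0.07, -0.0045 and -0.07.

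Among the 15 tested rows of cyclic nucleotide steps, 1 was higher and 1 lower with E2 when the block was used (backgrounds 10.4% and 4.63%). *Rapgef3*, an exchange factor activated directly by cyclic AMP, had 8.0, 8.97 and 9.59 FPKM in DMSO, 5.10, 6.39 and 6.53 FPKM in E2 and 8.49, 8.17 and 9.33 FPKM in 4OHT. Its E2 samples lay below all others, with a fitted log2 difference from DMSO of -0.50 (SE 0.061 and adjusted p = 0.00577 with the block, limma). *Pde4b*, a phosphodiesterase that degrades cyclic AMP, had 4.10, 2.52 and 2.43 FPKM in DMSO and 6.74, 4.12 and 4.08 FPKM in E2, with a difference of 0.57 (adjusted p = 0.0120). Its E2 and DMSO ranges overlapped through replicate 1. The subunits of soluble guanylate cyclase, *Gucy1a1* and *Gucy1b1* (listed as *Gucy1a3* and *Gucy1b3*), were at 0 in all 9 samples, among 5 such rows of the list.

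Between E2 and 4OHT, 5 of the 30 passed with the block (16.7%, against 16.2% of all tested genes). *Ackr3* (0.97, adjusted p = 0.00641), *Pde4b* (0.67, adjusted p = 0.00974) and its relative *Pde4d* (0.27, adjusted p = 0.0382) were higher with E2. *Rapgef3* (-0.47, adjusted p = 0.00906) and *Prkg2*, a kinase activated by cyclic GMP (-0.35, adjusted p = 0.0465), were lower. Between 4OHT and DMSO, 0 of the 30 passed with or without the block (limma), and 1 without it and 5 with it had an unadjusted p under 0.05. Of all 11339 tested genes, 313 without the block and 1480 with it had one.

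**Figure D4:**
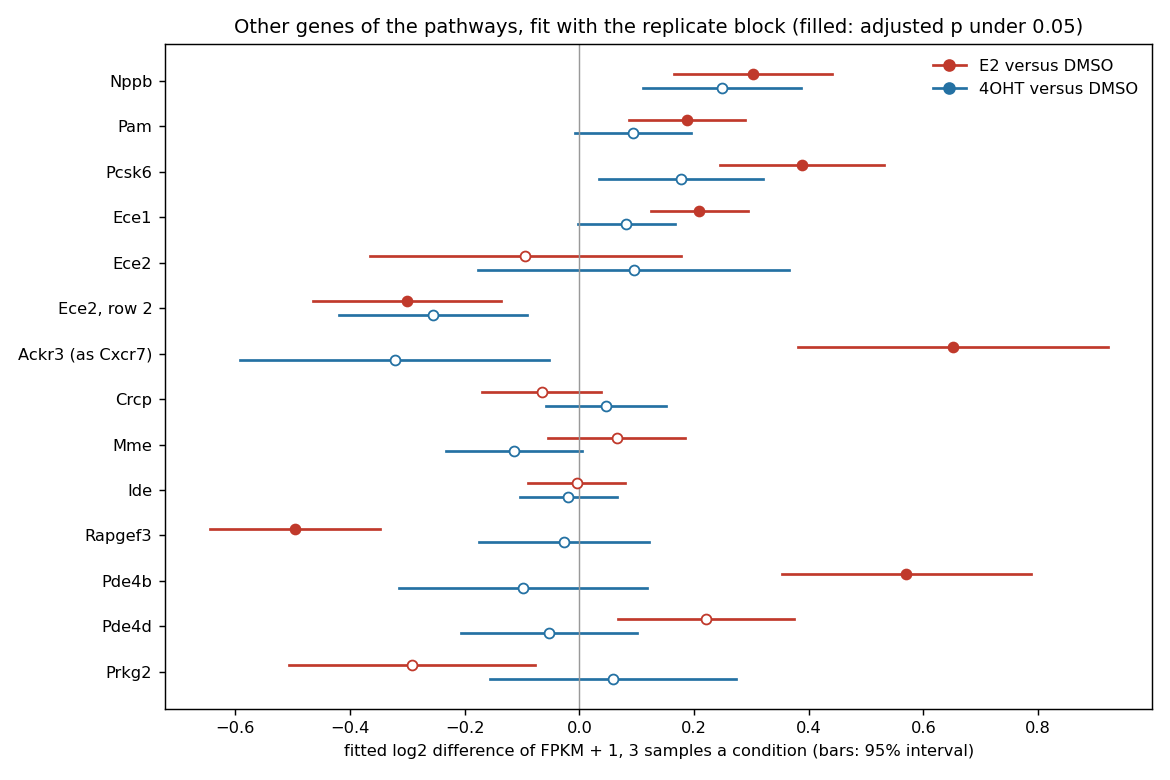
Fitted difference of log2(FPKM + 1) with its 95% interval (x axis) for 13 other genes of the pathways (y axis, 2 rows for *Ece2*), from the fit with the replicate block, for E2 versus DMSO (red) and 4OHT versus DMSO (blue). Filled points have an adjusted p under 0.05: they are red points only, 6 to the right of 0 and 2 to the left, and none of these passed without the block.

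Replicate 1 stood apart for several of these genes. *Npr1* and *Ackr3* were highest, and *Apln* and *Nppb* lowest, in replicate 1 of every condition, and the estrogen receptor gene *Esr1* had 12.4, 16.3 and 11.2 FPKM in replicate 1 of DMSO, E2 and 4OHT against 5.25 to 9.32 FPKM in the other samples. What distinguished these 3 samples is not given by the labels, and its part in the differences was not tested. With replicate 1 of every condition left out, the fitted log2 differences of *Npr1* and *Apln* between E2 and DMSO were 0.84 (SE 0.11) and -0.84 (SE 0.14). For *Npr1*, this difference was 0.73 with all samples, 1.13 without DMSO replicate 1 and 0.44 without E2 replicate 1.

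For *Adm*, *Apln* and *Npr2*, the genes of most similar pattern were sought among the 11332 other tested genes, by the smallest root mean square difference of log2(FPKM + 1) centred on the mean of each gene over the 9 samples. For *Adm*, which itself varied by 0.718 about its mean, they were *Slco4a1*, a transporter (0.219), *Bnc1*, a zinc finger factor of epithelia (0.261), and *Nfkbia*, the inhibitor of NF-kappaB (0.302). For *Apln* (0.486 about its mean) they were *2900011O08Rik* (0.139), *Nup210*, a protein of the nuclear pore (0.171), and *Ablim1*, an actin binding protein (0.179). For *Npr2* (0.461 about its mean) they were *Gatsl2* (0.133), *Ern1*, a sensor of unfolded proteins (0.149), and *Ceacam2*, a cell adhesion gene (0.151) whose reads may be shared with its paralog *Ceacam1*. *Ceacam2* was under 1 FPKM in every DMSO and 4OHT sample and passed the filter only through its E2 samples (2.22 to 2.75 FPKM). Its means were 0.598 FPKM in DMSO and 2.45 in E2, a change that log2(FPKM + 1) understates. Each of these 9 genes shares its libraries, and so its replicate effects, with the gene it resembles.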

How the data were processed

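RNA of 9 samples of FVB MOE cells was sequenced as directional single-end reads. According to the study's methods and the submitters' processing notes, the authors filtered the reads, aligned them to mm10 with TopHat2 2.0.8b and quantified known genes of a UCSC annotation with Cufflinks and Cuffdiff 2.1.1. The deposited values are FPKM per gene and sample. Whether a further scaling entered them, and whether counting used the strand, is not given in the sources used here.

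Samples were grouped by the treatment label. The design allowed for a count test in case the values were counts. As they are FPKM, limma 3.58.1 (R 4.3.3, trend, log2(FPKM + 1), 1 coefficient per condition over all 9 samples) was used on the 11339 rows with at least 1 FPKM in at least 3 samples, with Benjamini-Hochberg adjustment per contrast and a threshold of 0.05. Rows of repeated symbols (362) and joined names (293) were kept, and exact zeros were kept as values (245 tested rows hold one). The script was tested on simulated data. Other steps used Python 3.11.15. Positions are from GENCODE M21 and promoters from RefSeq. Relative depth was the commonest ratio, in a log2 window of 0.02, of values under 0.02 FPKM; read totals were not analysed here, and the steps cover counting error only.

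The pairing comes from the replicate numbers in the labels. Deviations of the 9 same-numbered pairs from their condition means correlated at 0.0527 to 0.293 over all tested genes, where 4 pairs fall below the limit of 0.1 set for pairing, and at 0.523 to 0.828 over the 11094 without an exact 0. Differently numbered pairs correlated at -0.238 to 0.0951 over all tested genes, which is above some same-numbered pairs. Over the genes without an exact 0 they correlated at -0.647 to 0.064. The fit with a replicate block was therefore given beside the main one and not in its place.

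The genes named are the 10 members, the other pathway genes that passed in any contrast with or without the block or are expressed ligands or receptors, and the 3 genes most like *Adm*, *Apln* and *Npr2*. The members and lists were chosen with earlier results of these data known. Alternatives were a pseudocount of 0.1, no filter, upper-quartile scaling, only the 6 samples compared, the block, exact zeros treated as missing (alone or together with the block), and each sample left out. Leaving out replicate 1 of every condition was added after the data were seen.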

Additional observations from a re-analysis of the deposited data

How the results depend on the processing

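The members' fitted log2 differences changed sign in 3 of 119 values over 17 alternatives for E2 versus DMSO (*Ramp2* only), in 9 of 119 for 4OHT versus DMSO (*Edn1*, *Npr3*, *Npr1* and *Apln*) and in 0 of 119 for E2 versus 4OHT. The counts of calls moved far more, and the cause was not tested. Some alternatives also have fewer samples. Members called between E2 and DMSO were 2, with 1 without the filter, 0 with only the 6 samples compared, 6 with the replicate block (also with exact zeros as missing), and 0 to 2 with samples left out. The count was 0 without DMSO replicate 3 or without E2 replicate 1, 2 or 3, and 1 without DMSO replicate 1 or 2, 4OHT replicate 1 or 3, or replicate 1 of every condition. Members called between E2 and 4OHT were 1, with 5 under the replicate block, 6 with exact zeros as missing and the block, and 0 to 1 with samples left out (0 without E2 replicate 2 or 3 or any 1 of the 4OHT samples). Between 4OHT and DMSO no alternative called a member.

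All genes called between E2 and DMSO numbered 58, with 32 without the filter, 8 with only 6 samples, 1702 with the replicate block, 2128 with exact zeros as missing and the block, and 8 to 125 with samples left out (8 without DMSO replicate 3, 125 without replicate 1 of every condition). Between E2 and 4OHT they numbered 18, with 10 at a pseudocount of 0.1, 9 without the filter, 7 with only 6 samples, 37 with exact zeros as missing, 1840 with the replicate block, 2476 with both, and 0 to 72 with samples left out (0 without 4OHT replicate 1 or 2, 72 without replicate 1 of every condition). Between 4OHT and DMSO they numbered 0 (limma, 313 at an unadjusted p under 0.05), with 3 with only 6 samples, 21 with exact zeros as missing and the block, and 0 to 4 with samples left out. The pathway list went from 0 to 8 with the replicate block, to 9 with zeros as missing as well, and to 0 to 1 with samples left out for E2 versus DMSO, and from 0 to 5, 8 and 0 to 1 for E2 versus 4OHT. Depth limits *Calcrl* and *Ramp3*, whose values rest on few reads, and every 4OHT sample was shallower than every DMSO sample.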
